A study of Mus musculus with 67 samples.

Results

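The mitochondrial genome (mtDNA) of the mouse carries its own set of genes, and their RNA was examined in forelimb buds with and without *Gli3*. Members were all entries of the RNA-seq gene tables whose gene name starts with mt-, which gave 37 genes of 46983 gene IDs listed. They are 13 protein genes, 2 rRNA genes and 22 tRNA genes. All 37 lie on chrM, which holds no other listed gene, and all 37 have the start and end that RefSeq gives them in GRCm38.p6. The tRNA genes span 59 to 75 bases, shorter than the 100-base reads, and are described apart from the others. A full-length read over such a gene runs past its ends, so these values cannot be read as levels of mature tRNA. Where tRNA genes adjoin, such a read can fall on both, so neighbours are not separate observations.

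Mitochondria make ATP through a chain of protein complexes in their inner membrane, and the mtDNA encodes the core of this chain. The *mt-Nd* genes encode subunits of complex I, *mt-Cytb* a subunit of complex III, the *mt-Co* genes the catalytic core of complex IV, and *mt-Atp6* and *mt-Atp8* subunits of ATP synthase, while all other subunits come from nuclear genes. Both strands of mtDNA are transcribed into long precursors that hold mRNAs, rRNAs and tRNAs in a row. The tRNAs stand between most of the other genes and are cut out at both ends, which frees the mRNAs and rRNAs beside them. In the tables, 28 of the genes are on the plus strand, and 9 are on the minus strand, namely *mt-Nd6* and 8 tRNA genes. After cleavage the mRNAs, apart from that of *mt-Nd6*, gain short poly(A) tails, and their levels then depend on how long each lasts.

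The 14 libraries come from Swiss Webster mice in 4 groups. The pre-HH groups were pools of whole forelimb buds at E9.25 with 21 to 23 somites, 3 from WT and 4 from *Gli3*-/- embryos. The post-HH groups were pools of the anterior part of forelimb buds at E10.5 with 32 to 35 somites, 4 from WT and 3 from *Gli3*-/- embryos. Mutants were homozygous for *Gli3*Xt-J, a germline deletion in *Gli3* that affects every tissue of the embryo and not the limb alone. Age and the part of the bud taken differ together between the stages and cannot be told apart. The labels also give different numbers of limb pairs pooled, 4 at E9.25 and 2 at E10.5, where the methods of the study give the same number for both stages. HH, the Hedgehog signal, starts in the limb between the stages, and the comparisons ask what loss of the repressor GLI3 changes before and after it starts.

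Depth, estimated from the tables, was 38.1 to 56.8 M reads per library, of which 1.71 to 3.73% fell on mtDNA genes. Libraries of a group correlated with r of 0.986 to 0.996 over log2(TPM + 1) of all genes, where TPM is a length-corrected level with the same total in each library. *Gli3* stood at 6.22 to 6.50 log2(TPM + 1) in WT and at 5.31 to 5.39 in *Gli3*-/- at E10.5. At E9.25 it ranged from 4.07 to 5.51 in WT and from 3.94 to 4.45 in *Gli3*-/-, and the library labelled E9.25 WT replicate 2, the lowest of the WT, lay within the *Gli3*-/- range. Limb mesenchyme markers summed to 386 to 729 TPM, hindlimb markers to at most 8.65 and neural tube markers to at most 0.266. That library also had the lowest depth, and over genes that span 100 kb or more it lay at a median of -0.51 log2 from the mean of the other E9.25 WT libraries, against -0.20 over all expressed genes. Its label is used throughout, and values without it are given beside the comparisons in which it moved a count or a named gene.

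The 13 protein genes took 3.03 to 6.50% of all TPM in a library, and *mt-Co1*, the catalytic subunit of complex IV, had the highest mean of all listed genes, nuclear ones included. Its TPM ranged from 6107 to 11206, with a mean of 9073 over the 14 libraries. *mt-Nd1* followed with a mean of 7200.2 TPM and was below *mt-Co1* in 14 of 14 libraries. *mt-Atp6* (5645), *mt-Co3* (5038), *mt-Co2* (4736) and *mt-Cytb* (4565) came next by mean TPM, and neighbours in this order changed places in 4 to 5 of the 14 libraries. *mt-Nd2* (2718) and *mt-Nd4* (2420.0) formed a lower step, with *mt-Nd2* below *mt-Cytb* in 14 of 14 libraries. The lowest were *mt-Nd5* (1799), *mt-Nd6* (1720.2), *mt-Atp8* (1677), *mt-Nd3* (1397) and *mt-Nd4l* (1146), with the rRNA genes *mt-Rnr2* (1362) and *mt-Rnr1* (1214) among them. rRNA molecules are abundant in cells, and the tables do not say whether rRNA was removed or poly(A) RNA selected, so these values give no ratio of rRNA to mRNA molecules.

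**Figure D1:**
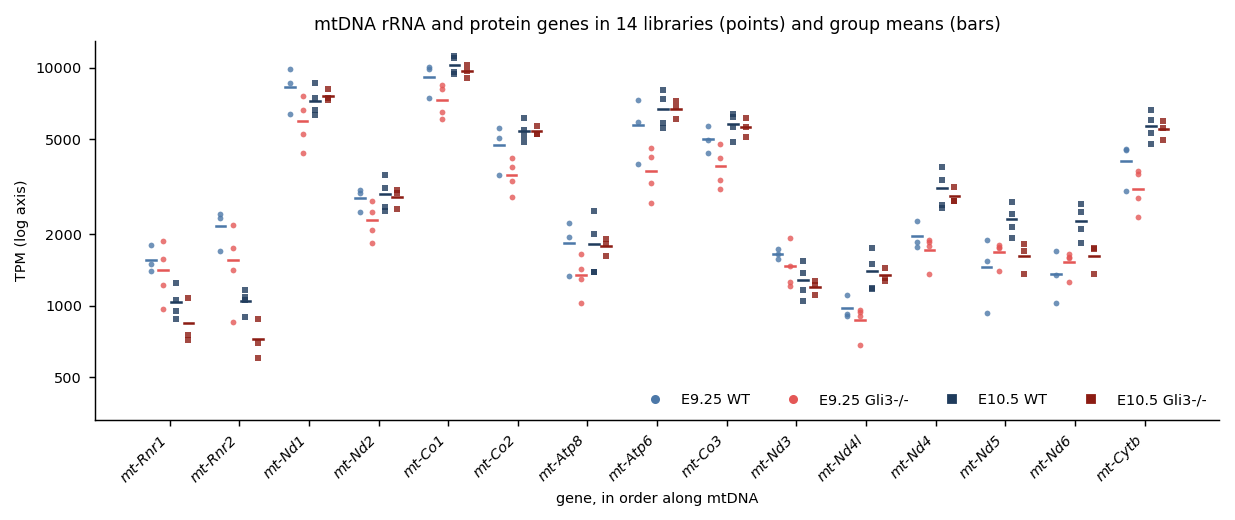
TPM (log axis) of the 2 rRNA and 13 protein genes of mtDNA, in their order along the genome. Points are libraries, bars are group means, and colours and symbols mark the 4 groups; mt-Co1 sits highest at 6107 to 11206 TPM, by group mean the rRNA genes are lower and mt-Nd4 and mt-Cytb higher at the later stage.

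The level of at least 7 of the protein genes is uncertain, because the nuclear genome carries a copy of part of mtDNA on chromosome 1. The tables list 7 genes there, all on the minus strand of chr1:24611535-24616197 (mm10), and their order and lengths follow those of *mt-Co1* to *mt-Nd4*. *Gm28661* paired with *mt-Co2*, *Gm10925* with *mt-Atp6*, *Gm28437* with *mt-Co3*, *Gm28438* with *mt-Nd3* and *Gm10222* with *mt-Nd4l*, each within 3 bases of the length of its counterpart. Their TPM was 99.4 to 115% of that of the mtDNA gene in every library. The shorter *Gm29216* (492 bases, against 1545 for *mt-Co1*) and *Gm28439* (876 bases, against 1378 for *mt-Nd4*) stood at 58.3 to 73.9%. *mt-Atp8* and the tRNA genes *mt-Ts1*, *mt-Td*, *mt-Tk*, *mt-Tg* and *mt-Tr* lie between the copied genes on mtDNA. No copy of them is listed, and whether their levels share this uncertainty was not tested. The 7 copy genes summed to 49.8 to 54.8% of the TPM of the 13 protein genes, and how a read that matches both places was assigned is not given in the sources used here. Adding the copies to their counterparts left the number of members called in each of the 5 comparisons as it was. Each copy followed its counterpart over the libraries, with the lowest r of log2(TPM + 1) at 0.968 for *Gm29216*. The addition could therefore change little, and it does not show whether the copy matters.

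**Figure D2:**
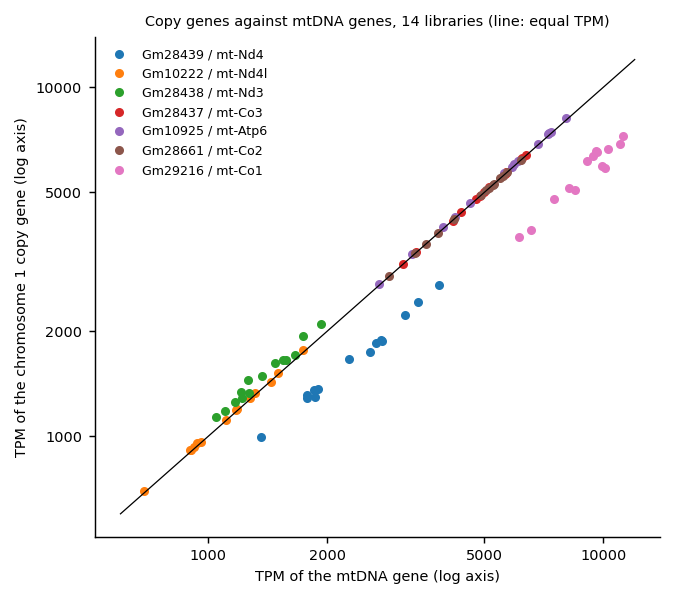
TPM of the 7 genes listed in the chromosome 1 copy of mtDNA against the TPM of their mtDNA counterparts, both on log axes, with 1 point per library and a line of equal TPM. The 5 copies of nearly full length lie on or just above the line (99.4 to 115%), and Gm29216 and Gm28439 lie below it (58.3 to 73.9%).

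At E9.25, before HH signaling, no member passed the test between *Gli3*-/- and WT buds. The test was limma on log2(TPM + 1), adjusted over all 14760 genes tested, of which 0.108% were called higher and 0.0271% lower in *Gli3*-/-. Among the 37 members 5 had an unadjusted p under 0.05 (*mt-Nd1*, *mt-Co3* and *mt-Atp6* with lower and *mt-Td* and *mt-Tr* with higher values in *Gli3*-/-), and limma was the only tool used. The share at that p was 22% over all genes tested (3247 of 14760) and 13.5% over the members. The 13 protein genes had a median log2 fold change of -0.32 (11 of 13 below 0), where the median of all genes tested was 0.23. The farthest from 0 was *mt-Atp6*, at 3938, 7299 and 5945 TPM in WT replicates 1 to 3 and 4599, 3284, 2698 and 4200.3 TPM in *Gli3*-/- replicates 1 to 4, a log2 fold change of -0.62 ± 0.24 (SE, limma adjusted p = 0.217). WT replicates 2 and 3 lay above all *Gli3*-/- libraries and WT replicate 1 among them, so that the groups overlapped. The protein genes together took 4.06, 5.44 and 5.21% of TPM in WT (4.91 ± 0.742, SD, n = 3) and 4.55, 3.54, 3.03 and 4.25% in *Gli3*-/- (3.84 ± 0.688, SD, n = 4), and these groups overlapped too. Of the 22 tRNA genes, 15 had higher and 7 lower values in *Gli3*-/-, with a median log2 fold change of 0.21. Only *mt-Td*, the tRNA gene for aspartate, had groups that did not overlap, at 16.9, 13.9 and 14.5 TPM in WT and 17.7, 26.7, 17.3 and 23.2 TPM in *Gli3*-/-, and it missed the threshold (limma adjusted p = 0.220). Over all genes tested, 9.97% had all *Gli3*-/- libraries above WT and 3.36% below. Flank and lateral plate markers, tissue next to the bud, summed to 20.7 to 46.9 TPM in WT and 73.1 to 163 TPM in *Gli3*-/- at this stage, and their part in these values was not tested. In bulk samples such as these, fewer cells of a type and less RNA per cell cannot be told apart. Endothelial markers summed to 47.3 to 81.9 TPM in WT and 95.3 to 143 TPM in *Gli3*-/- (0 of 5 called), and their part was not tested either. With WT replicate 2 left out, the count of members called was again 0, 12 tRNA genes had higher and 10 lower values in *Gli3*-/- (median 0.05 in place of 0.21), 13 of 13 protein genes lay below 0, and the log2 ratio of the summed protein genes was -0.27 in place of -0.35. Without that library *mt-Atp6* changed by -0.42 log2 (limma adjusted p = 0.442). *mt-Nd1*, *mt-Co3*, *mt-Td* and *mt-Tr* changed by -0.35, -0.30, 0.39 and 0.44 log2, in place of -0.48, -0.39, 0.45 and 0.93.

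At E10.5, after HH signaling began, the TPM of 10 tRNA genes was lower in anterior *Gli3*-/- buds, and no protein or rRNA gene passed. The 10 were those for methionine (*mt-Tm*), tryptophan (*mt-Tw*), alanine (*mt-Ta*), asparagine (*mt-Tn*), cysteine (*mt-Tc*), tyrosine (*mt-Ty*), aspartate (*mt-Td*), lysine (*mt-Tk*), threonine (*mt-Tt*) and proline (*mt-Tp*). They fell by 1.09 to 3.16 on the log2 scale, 5 of them on each strand, and none of their groups overlapped. Several of the 10 adjoin each other and can share reads, so they are not 10 separate observations. Among all 15654 genes tested, 2.93% were called lower and 1.84% higher in *Gli3*-/-. All 21 tRNA genes tested had negative log2 fold changes (median -1.09), against a median of -0.02 over all genes, and in 13 of the 21 every *Gli3*-/- library lay below every WT library, which held for 11.5% of all genes (7.87% lay above). *mt-Tf*, for phenylalanine, had too little signal at this stage to be tested, with 0.632, 0.398, 1.32 and 0.264 TPM in WT and 1.03, 0.939 and 0.228 TPM in *Gli3*-/-.

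**Figure D3:**
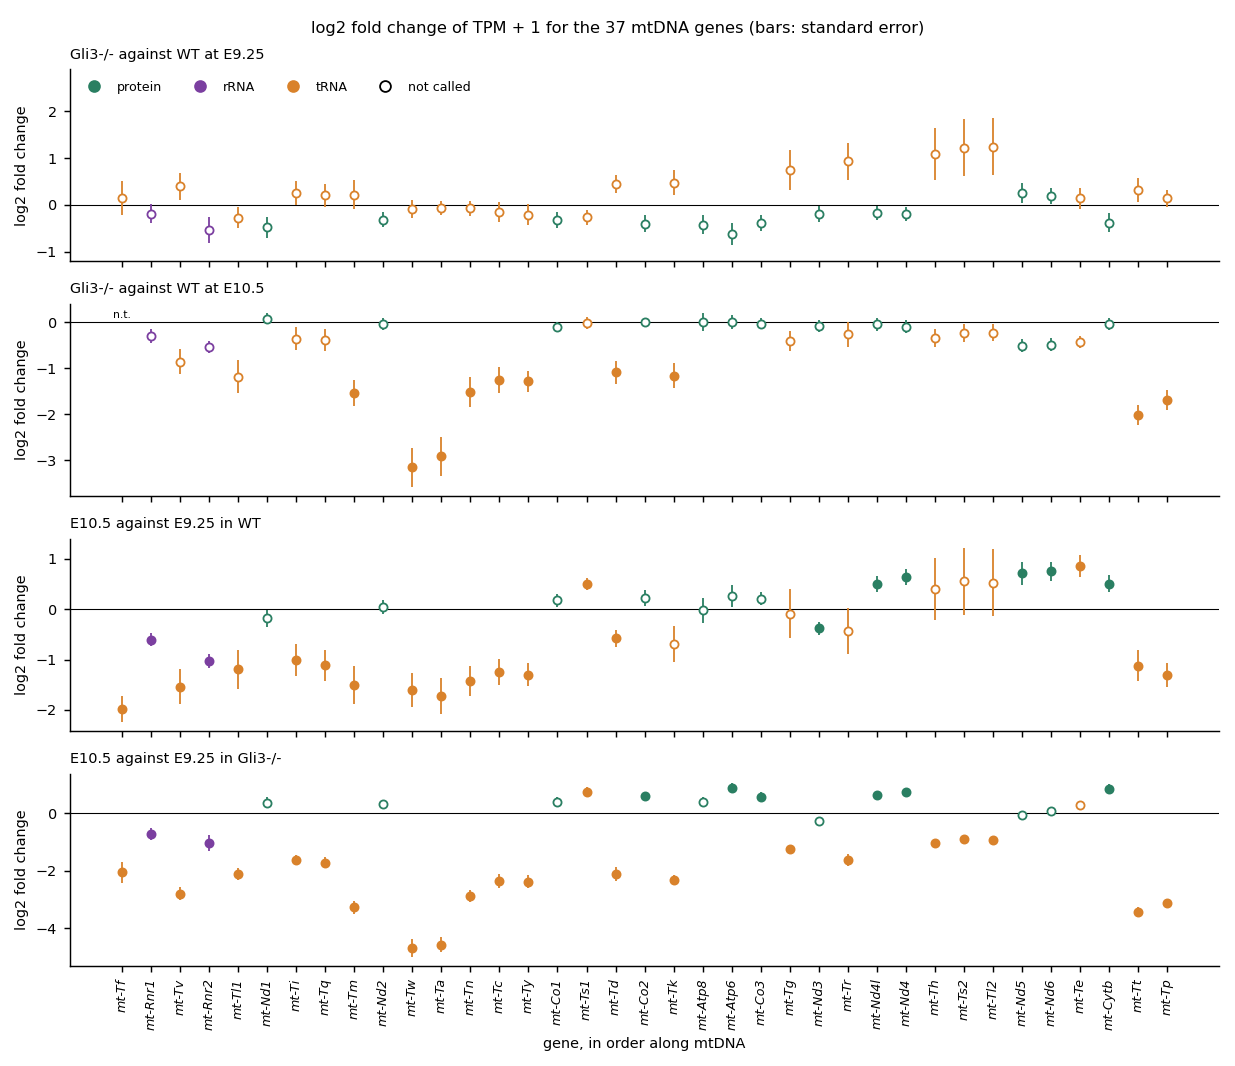
log2 fold change of TPM + 1 (y axis) with its standard error for the 37 genes in their order along mtDNA (x axis), in 4 comparisons, from limma. Filled points passed an adjusted p of 0.05, open points did not, n.t. marks a gene not tested, and colours separate protein, rRNA and tRNA genes; at E10.5 the filled points of Gli3-/- against WT are all tRNA genes, and the lowest are mt-Tw (-3.16) and mt-Ta (-2.92).

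The pair with the largest falls was *mt-Tw* and *mt-Ta*, which lie next to each other on opposite strands between *mt-Nd2* and *mt-Co1*. *mt-Tw* (chrM:4950-5016, mm10, plus strand) stood at 325, 273 and 332 TPM in E9.25 WT, 307, 377, 206 and 299 TPM in E9.25 *Gli3*-/-, 66.4, 204, 70.6 and 107 TPM in E10.5 WT and 18.7, 10.48 and 5.51 TPM in E10.5 *Gli3*-/- libraries. All 3 E10.5 *Gli3*-/- values lay below every other library, and WT replicate 2 was the highest of its group. Its log2 fold change between the E10.5 genotypes was -3.16 ± 0.43 (SE, limma adjusted p = 0.00398), and its mean TPM was 9.70-fold lower. *mt-Ta* (chrM:5018-5086, mm10, minus strand) followed the same order, with 60.3, 203, 66.5 and 111 TPM in E10.5 WT and 19.5, 7.28 and 12.1 TPM in E10.5 *Gli3*-/- and a log2 fold change of -2.92 ± 0.42 (SE, limma adjusted p = 0.00511). The depth behind these values is small in *Gli3*-/-: an estimated 7.84 to 35.1 reads per library for *mt-Tw*, against 119.7 to 283 in WT.

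The neighbours *mt-Tn*, *mt-Tc* and *mt-Ty*, which complete this stretch of 5 tRNA genes (chrM:4950-5326, mm10), fell less. *mt-Tn* stood at 91.2, 227, 81.2 and 136 TPM in E10.5 WT and 49.8, 30.1 and 49.6 TPM in E10.5 *Gli3*-/- (-1.53 ± 0.33 log2, SE, limma adjusted p = 0.0312). *mt-Tc*, the most abundant of the 10, stood at 372, 723, 292 and 500.2 TPM in WT and 204, 138 and 227 TPM in *Gli3*-/- (-1.26 ± 0.28 log2, limma adjusted p = 0.0379). In both, every *Gli3*-/- library lay below every WT library, and WT replicate 2 was again the highest. *mt-Ty* stood at 173, 307, 145 and 232 TPM in WT and 94.5, 68.0 and 92.2 TPM in *Gli3*-/- (-1.28 ± 0.23 log2, SE, limma adjusted p = 0.0149).

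At the end of the coding part of the genome, *mt-Tt* and *mt-Tp*, which again lie side by side on opposite strands (chrM:15289-15422, mm10) next to *mt-Cytb*, had the lowest p-values of the members. *mt-Tt* stood at 112, 171, 87.3 and 121 TPM in E10.5 WT and 37.7, 23.6 and 27.1 TPM in E10.5 *Gli3*-/-, a log2 fold change of -2.01 ± 0.22 (SE, limma adjusted p = 0.00118). *mt-Tp* stood at 102, 169, 87.1 and 122 TPM in WT and 40.1, 27.2 and 40.3 TPM in *Gli3*-/- (-1.69 ± 0.22 log2, SE, limma adjusted p = 0.00287). The lowest WT value of each was more than any *Gli3*-/- value, and *mt-Cytb* itself differed by -0.04 ± 0.13 log2 (SE, limma adjusted p = 0.905).

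The remaining 3 of the 10 lie elsewhere on mtDNA, and *mt-Td* and *mt-Tk* lie in the stretch that the chromosome 1 copy follows. *mt-Tm* stood at 26.1, 48.9, 18.5 and 26.2 TPM in E10.5 WT and 6.77, 9.36 and 11.3 TPM in E10.5 *Gli3*-/- (-1.54 ± 0.28 log2, SE, limma adjusted p = 0.0157). *mt-Tk*, between *mt-Co2* and *mt-Atp8*, changed by -1.16 ± 0.26 log2 (SE, limma adjusted p = 0.0394) and *mt-Td*, before *mt-Co2*, by -1.09 ± 0.24 log2 (SE, limma adjusted p = 0.0376), the latter at no more than 11.2 TPM in any E10.5 library.

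*mt-Tw* and *mt-Tt* passed in all 13 other settings tried and without any 1 of the 7 libraries, and *mt-Ta* and *mt-Tp* failed only where the replicate number of the titles was a block in the fit. The other 6 are less firm: the count of 10 fell to 5 without E10.5 WT replicate 4 or E10.5 *Gli3*-/- replicate 2, to 6 without E10.5 *Gli3*-/- replicate 3 or without a variance trend, to 4 without the filter on low TPM and to 2 with the title numbers as a block. Over all genes tested, those called lower went from 459 to 239, 295, 177, 480, 213 and 97 in these fits, in the same order.

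**Figure D4:**
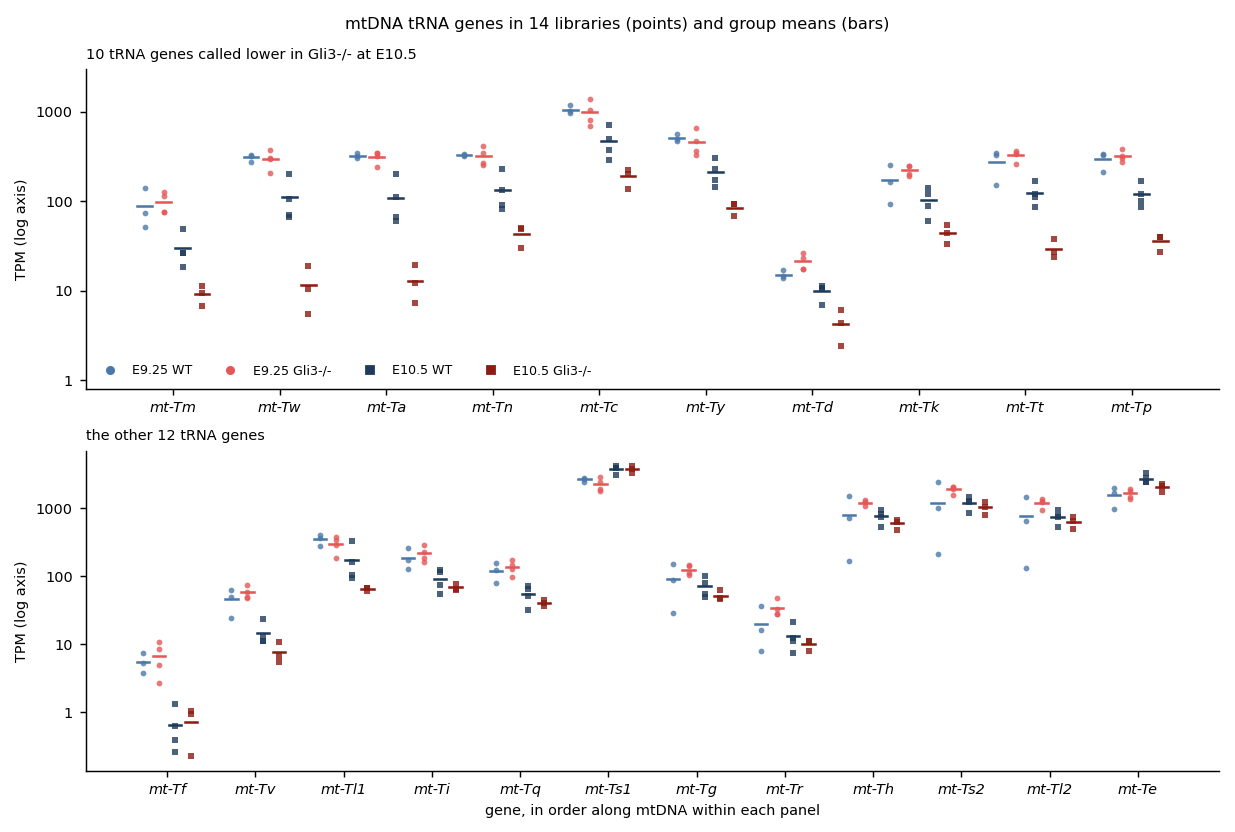
TPM (log axis) of the 22 tRNA genes of mtDNA, split into the 10 called lower in Gli3-/- at E10.5 (top) and the other 12 (bottom). Points are libraries and bars group means; in the top panel the E10.5 Gli3-/- libraries lie below all others, while mt-Ts1 and mt-Te in the bottom panel are higher at the later stage by group mean.

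Short genes outside mtDNA were looked at beside these. Of the 223 listed genes under 100 bases outside mtDNA tested between the E10.5 genotypes, 3 were called higher and 3 lower, with a median log2 fold change of -0.04. This is 1.35% in each direction, against 1.84% higher and 2.93% lower over all genes tested. All listed genes of this length outside mtDNA summed to 2.42, 1.05, 2.21 and 1.31% of TPM in E10.5 WT replicates 1 to 4. In E10.5 *Gli3*-/- they summed to 1.91, 1.73 and 0.972%, and the part of this spread in the tRNA values was not tested. Markers of other cells that moved at this stage were those of limb mesenchyme, which summed to 587 to 729 TPM in WT and 475 to 516 TPM in *Gli3*-/- (3 of 5 called lower, 1 higher), and those of ectoderm, at 162 to 188 TPM and 249 to 284 TPM (1 of 5 called higher). Erythroid markers summed to 10107 to 13825 TPM in WT and 11936 to 33323 TPM in *Gli3*-/-, with overlapping groups (0 of 5 called, median log2 fold change 0.56). The part of these cells in the tRNA values was not tested.

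No mRNA gene next to these tRNA genes passed. The 13 protein genes had a median log2 fold change of -0.04 between the E10.5 genotypes and took 4.90, 6.50, 5.08 and 6.06% of TPM in WT (5.63 ± 0.769, SD, n = 4) and 5.18, 5.28 and 5.71% in *Gli3*-/- (5.39 ± 0.283, SD, n = 3), so that the groups overlapped. *mt-Nd2*, which lies just before *mt-Tw*, differed by -0.03 ± 0.13 log2 (SE), and *mt-Co1*, on the other side of that stretch, by -0.09 ± 0.11 log2 (SE), with limma adjusted p of 0.941 and 0.703. Among the 13, all *Gli3*-/- libraries lay below WT for 2, *mt-Nd5* and *mt-Nd6*, complex I genes that overlap at their ends on opposite strands, and the same held for 11.5% of all genes tested. *mt-Nd5* stood at 2149.9, 2442, 1920.2 and 2737 TPM in WT and 1813, 1353 and 1698 TPM in *Gli3*-/- (-0.51 ± 0.14 log2, SE, limma adjusted p = 0.0773). *mt-Nd6* stood at 2095, 2476, 1828 and 2683 TPM and 1725, 1363 and 1749 TPM (-0.49 ± 0.14 log2, SE, limma adjusted p = 0.0987), and the tRNA gene *mt-Te* beside it differed by -0.42 ± 0.13 log2 (SE, limma adjusted p = 0.118). *mt-Rnr2*, the large rRNA of the mitochondrial ribosome, came close to the threshold, at 1085, 1055, 896 and 1169 TPM in WT and 878, 696 and 604 TPM in *Gli3*-/- (-0.54 ± 0.13 log2, SE, limma adjusted p = 0.0510). The small rRNA gene *mt-Rnr1* had overlapping groups (-0.30 ± 0.16 log2, SE, limma adjusted p = 0.347).

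Between the stages in WT, the members split by class: both rRNA genes and 14 tRNA genes fell, and 5 protein genes and 2 tRNA genes rose, from whole E9.25 to anterior E10.5 buds. Both directions need the scale beside them, because 38.1% of all 15444 genes tested were called higher and 10.6% lower at E10.5, and the median gene rose by 0.34 log2. *mt-Rnr2* stood at 1706, 2424 and 2346 TPM in E9.25 WT and at 1085, 1055, 896 and 1169 TPM in E10.5 WT, a log2 fold change of -1.03 ± 0.14 (SE, limma adjusted p = 0.000962). *mt-Rnr1* changed by -0.60 ± 0.14 log2 (SE, limma adjusted p = 0.00800), and the groups of neither overlapped. *mt-Nd3*, a small subunit of complex I, was the 1 protein gene to fall (-0.38 ± 0.13 log2, SE, limma adjusted p = 0.0410), from 1654 ± 79.7 to 1282 ± 219.8 TPM (SD, n = 3 and 4). That call is not firm: it passed without 1 of the 7 libraries, with an adjusted p of up to 0.0967, and in 7 of 12 other settings. Flank and lateral plate markers summed to 20.7 to 46.9 TPM at E9.25 and 11.1 to 12.8 TPM at E10.5 in WT (4 of 6 tested called lower, 1 higher), and macrophage markers to 0.0634 to 0.288 TPM and 3.27 to 5.33 TPM. Only 3 of the 7 flank markers passed the filter on low TPM within the E10.5 libraries, so calls of the others came through E9.25 and give no support. Somite and muscle markers summed to 17.5 to 20.8 TPM and 30.3 to 39.4 TPM (2 of 3 tested called higher, 1 lower), and limb mesenchyme markers to 438 to 531 TPM and 587 to 729 TPM (2 called higher, 1 lower). The part of these cells in the WT stage differences was not tested.

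The 5 protein genes that rose in WT were *mt-Nd4l*, *mt-Nd4*, *mt-Nd5*, *mt-Nd6* and *mt-Cytb*. *mt-Nd4* stood at 1773, 1859 and 2268 TPM in E9.25 WT and at 2656, 3834, 2572 and 3388 TPM in E10.5 WT (0.65 ± 0.16 log2, SE, limma adjusted p = 0.0110). *mt-Nd6* went from 1358 ± 339 to 2270.2 ± 383 TPM (SD, n = 3 and 4), a log2 fold change of 0.76 ± 0.19 (SE, limma adjusted p = 0.0116). For *mt-Nd4l*, *mt-Nd5* and *mt-Cytb* the log2 fold changes were 0.50, 0.72 and 0.51. With each of the 7 libraries left out in turn, *mt-Nd4* and *mt-Nd6* passed in all 7 fits, *mt-Nd4l* in 4, *mt-Cytb* in 3 (adjusted p up to 0.0877) and *mt-Nd5* in 2 (adjusted p up to 0.0776). With E9.25 WT replicate 2 left out, *mt-Nd5* changed by 0.43 log2 (limma adjusted p = 0.0539) and *mt-Nd6* by 0.57 log2, and the calls of *mt-Nd3*, *mt-Nd4l*, *mt-Nd5* and *mt-Tl1* were lost while *mt-Tk* passed (-1.06 log2, limma adjusted p = 0.0201). With all libraries, and relative to the median gene, the 5 rises were 0.17 to 0.42 log2. On TPM 7 members were called higher and 17 lower, beside 5885 and 1635 of all 15444 genes tested. With size factors that set the median ratio to 1 it was 0 and 18, beside 3184 and 3274 of 15444. With FPKM it was 2 and 17, beside 3987 and 2299 of 13811. The 13 protein genes together took 4.91 ± 0.742% of TPM at E9.25 and 5.63 ± 0.769% at E10.5 (SD, n = 3 and 4), with overlapping groups.

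The tRNA genes that fell in WT did so by 0.58 to 1.98 on the log2 scale, so that against the median gene the gap was larger. *mt-Tf* was the lowest of all members, at 3.79, 7.42 and 5.32 TPM in E9.25 WT and 0.632, 0.398, 1.32 and 0.264 TPM in E10.5 WT (-1.98 ± 0.26 log2, SE, limma adjusted p = 0.000817), and rests on at most an estimated 16.8 reads in any library. It reached 1 TPM in 1 of 4 E10.5 WT libraries and passed the filter on low TPM through the E9.25 group, where it is high, so its call gives no support, and the count of tRNA genes that fell is 13 without it. *mt-Ta* fell from 324 ± 20.4 to 110.3 ± 65.9 TPM (SD, n = 3 and 4; -1.72 ± 0.36 log2, SE, limma adjusted p = 0.00612). The groups of *mt-Tl1* and *mt-Tt* overlapped, since E10.5 WT replicate 2 had the highest values of its group and E9.25 WT replicate 1 or 2 the lowest of theirs. The 2 that rose, *mt-Ts1* for serine (0.50 ± 0.12 log2, SE, limma adjusted p = 0.0104) and *mt-Te* for glutamate (0.86 ± 0.22 log2, SE, limma adjusted p = 0.0138), are both on the minus strand and did not pass with size factors. *mt-Ts1* had the highest mean of the tRNA genes (3059.8 TPM over the 14 libraries) and stood at 2438, 2759.7 and 2711 TPM in E9.25 WT and 3881, 3051, 4189 and 3851 TPM in E10.5 WT.

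In *Gli3*-/- buds 20 of the 22 tRNA genes and both rRNA genes fell between the stages, and 6 protein genes and *mt-Ts1* rose. Of all 15434 genes tested, 15.8% were called higher and 9.17% lower, and the median gene moved by 0.06 log2. *mt-Tw* and *mt-Ta*, at 297 ± 69.9 and 314 ± 50.8 TPM in E9.25 *Gli3*-/- (SD, n = 4), came to 11.6 ± 6.65 and 12.96 ± 6.16 TPM at E10.5 (SD, n = 3), 25.7-fold and 24.2-fold lower by mean (limma adjusted p = 5.58e-06 and 1.57e-06). *mt-Tt* (-3.44 ± 0.17 log2, SE), *mt-Tm* (-3.27 ± 0.22), *mt-Tp* (-3.13 ± 0.16), *mt-Tn* (-2.88 ± 0.21) and *mt-Tv* (-2.79 ± 0.22) fell next most. The least were *mt-Th*, *mt-Tl2* and *mt-Ts2*, at -1.02, -0.94 and -0.90 log2. The groups of all 20 were apart. *mt-Tf* is among them and passed the filter through E9.25 alone here too, with 1 of 3 E10.5 libraries at 1 TPM or more, which leaves 19 others. In these comparisons 13 of 203 short genes outside mtDNA were called lower in WT (38 higher) and 25 of 214 in *Gli3*-/- (12 higher).

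The protein genes that rose in *Gli3*-/- were *mt-Co2*, *mt-Atp6*, *mt-Co3*, *mt-Nd4l*, *mt-Nd4* and *mt-Cytb*. *mt-Atp6* stood at 4599, 3284, 2698 and 4200.3 TPM at E9.25 and at 6071, 6816 and 7259.6 TPM at E10.5 (0.89 ± 0.18 log2, SE, limma adjusted p = 0.00592), with every E10.5 library above every E9.25 library. *mt-Cytb* stood at 3672, 2834, 2349.8 and 3576 TPM and 4983, 5609 and 5957 TPM (0.85 ± 0.17 log2, SE, limma adjusted p = 0.00476). *mt-Nd4* changed by 0.75 ± 0.14 log2 (SE), and *mt-Nd4l*, *mt-Co2* and *mt-Co3* by 0.63, 0.62 and 0.57 log2. *mt-Nd5* and *mt-Nd6*, which rose in WT, had -0.05 and 0.08 log2 here and did not pass, and the difference between the genotypes in this respect missed the threshold as well (limma adjusted p = 0.164 and 0.159 for the interaction). Summed, the protein genes took 3.84 ± 0.688% of TPM at E9.25 and 5.39 ± 0.283% at E10.5 (SD, n = 4 and 3), with groups that did not overlap (3.03 to 4.55% and 5.18 to 5.71%). *mt-Rnr2* fell by 1.03 and *mt-Rnr1* by 0.71 on the log2 scale, and the groups of both overlapped. With 1 library left out at a time *mt-Rnr1* passed in 3 of 7 fits (adjusted p up to 0.146) and *mt-Rnr2* in 5, and *mt-Co3* in 3 (adjusted p up to 0.122) and *mt-Co2* in 6. In the 13 other settings *mt-Rnr1* passed in 7 and *mt-Co3* in 9. The WT and *Gli3*-/- stage comparisons share no library. Flank and lateral plate markers summed to 73.1 to 163 TPM in E9.25 and 10.46 to 21.9 TPM in E10.5 *Gli3*-/- libraries. Of these, 6 of 7 were called lower, against 9.17% of all genes tested. Only 3 of the 7 passed the filter on low TPM within the E10.5 libraries, so calls of the others came through E9.25 and give no support. Macrophage markers summed to 0.1805 to 0.628 TPM and 4.11 to 5.29 TPM. Those of endothelium summed to 95.3 to 143 TPM and 75.5 to 92.8 TPM (3 of 5 called lower, 1 higher). Somite and muscle markers summed to 15.5 to 21.9 TPM and 23.7 to 35.0 TPM (2 of 3 tested called higher, 1 lower). The part of any of these cells in the stage differences was not tested.

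The effect of *Gli3* loss on 5 tRNA genes differed between the stages by an interaction test over all 14 libraries, where 0.477% of 16368 genes were called higher and 1.65% lower. The difference in effect, E10.5 minus E9.25, was -3.07 ± 0.53 log2 for *mt-Tw*, -2.86 ± 0.50 for *mt-Ta*, -2.32 ± 0.38 for *mt-Tt*, -1.83 ± 0.31 for *mt-Tp* and -1.54 ± 0.33 for *mt-Td* (SE, limma adjusted p = 0.00717, 0.00757, 0.00489, 0.00667 and 0.0242). At E9.25 the genotypes had differed by -0.09, -0.06, 0.32, 0.14 and 0.45 log2 for the same genes, with none called. All 22 tRNA genes but *mt-Ts1* had a negative interaction term, and the median over the 22 was -1.34, against -0.24 over all genes. No protein or rRNA gene passed (3 of 13 protein genes and 0 of 2 rRNA genes had an unadjusted p under 0.05, against 3443 of 16368 genes, or 21%). Without E9.25 WT replicate 2 the call of *mt-Td* was lost (-1.49 log2, limma adjusted p = 0.0565) and the other 4 were kept, with -1.95 log2 for *mt-Tt*. Leaving out E9.25 WT replicate 1 raised the count of members from 5 to 15, and the title numbers as a block left 0. Calls over all genes tested moved too, from 78 higher and 270 lower to 150 and 1283 without that replicate. With the block they were 16 and 26.

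The ratio of tRNA gene TPM to protein gene TPM within a library is free of the scaling between libraries and was computed for each library. It is not a ratio of mature tRNA to mRNA molecules. For 17 of the tRNA genes, leaving out *mt-Ts1*, *mt-Te*, *mt-Th*, *mt-Ts2* and *mt-Tl2*, which were set apart after their values were seen, the summed TPM per 100 TPM of the 13 protein genes was 11.7, 6.82 and 7.89 in E9.25 WT and 11.8, 11.2, 11.0 and 10.1 in E9.25 *Gli3*-/-. At E10.5 it was 2.88, 4.37, 2.29 and 3.25 in WT and 1.49, 1.11 and 1.35 in *Gli3*-/-, so that neither the stages nor the E10.5 genotypes overlapped for these 17. With all 22 tRNA genes the E10.5 ratio was 19.7 ± 2.01 in WT and 16.1 ± 2.44 in *Gli3*-/- (SD, n = 4 and 3), and these groups overlapped. At E9.25 it was 35.7, 14.6 and 20.9 in WT and 31.7, 33.6, 33.5 and 30.8 in *Gli3*-/-, so that with all 22 the stages overlapped in WT and were apart in *Gli3*-/-. The 2 rRNA genes gave 7.59 ± 0.198 and 7.55 ± 1.18 at E9.25 (SD, n = 3 and 4) and 3.77 ± 0.744 and 2.94 ± 0.757 at E10.5 (SD, n = 4 and 3), where the stages did not overlap and the genotypes did.

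**Figure D5:**
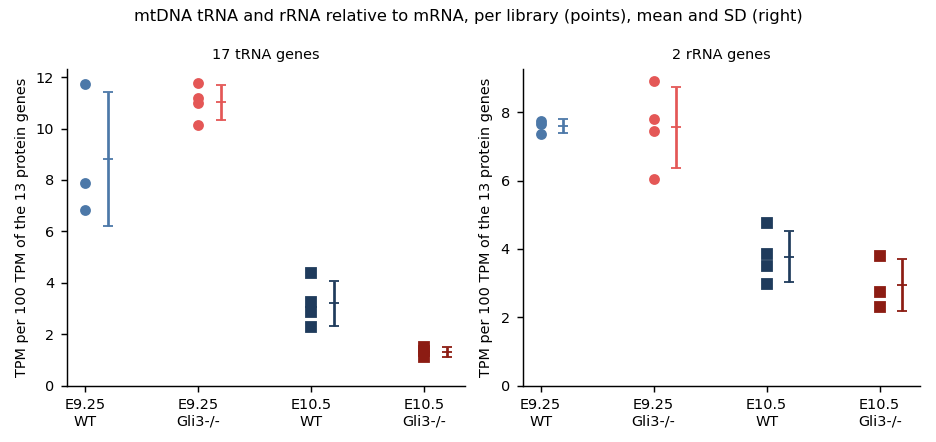
Summed TPM of 17 tRNA genes (left) and of the 2 rRNA genes (right) per 100 TPM of the 13 protein genes in the same library, by group, with points for libraries and the mean ± SD beside them. The tRNA ratio is 6.82 to 11.8 at E9.25, 2.29 to 4.37 in WT and 1.11 to 1.49 in Gli3-/- at E10.5, and the rRNA ratio is 6.04 to 8.92 at E9.25 and 2.31 to 4.75 at E10.5.

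Some neighbouring genes on mtDNA varied together between libraries, and others did not. Correlations are given over the 14 libraries as a description, and over each library's deviation from its group mean in parentheses, which removes the group differences, and all points share the depth and scaling of their library. *mt-Nd5* and *mt-Nd6* had r = 0.97 (0.96), and *mt-Nd5* and *mt-Te* r = 0.91 (0.90). Their TPM was nearly equal, with *mt-Nd6* at 0.876 to 1.10 times *mt-Nd5* in every library, although *mt-Nd6* is on the minus strand and *mt-Nd5* on the plus strand. By contrast, *mt-Nd6* and its other neighbour *mt-Cytb* had r = 0.48 (0.05), *mt-Tt* and *mt-Cytb* r = -0.65 (0.06), *mt-Tw* and *mt-Nd2* r = -0.21 (0.52) and *mt-Th* and *mt-Nd4* r = -0.20 (0.19). *mt-Nd1* and *mt-Cytb*, which lie far apart, had r = 0.72 (0.96). The mRNA of *mt-Nd5* is known to run on past the coding part, opposite to *mt-Nd6*, and *mt-Co1* likewise runs on opposite to *mt-Ts1* (r = 0.77, 0.42 for the deviations). Whether counting used strand is not given in the sources used here, so reads of such partners cannot be told apart, and the levels of *mt-Nd6* and of the minus-strand tRNA genes are uncertain.

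The tRNA genes *mt-Th*, *mt-Ts2* and *mt-Tl2*, for histidine, serine and leucine, stand in a row between *mt-Nd4* and *mt-Nd5* (chrM:11546-11741, mm10) and formed a second such group, with r of 0.99 to 1.00 between any pair. *mt-Tl2* and the adjacent *mt-Nd5* had r = 0.63 (0.93 for the deviations). The spread of the 3 tRNA genes was widest in E9.25 WT. *mt-Ts2* stood at 2384, 213 and 1016 TPM in its 3 libraries, where replicate 2 was far below the others, and at 788 to 2064 TPM in the remaining groups. *mt-Th* and *mt-Tl2* were at 164 and 131 TPM in that library and at 484 TPM or more in all others. The same library had the lowest *mt-Nd5* (932 TPM) and *mt-Te* (982 TPM) of all 14, and the highest *mt-Nd1* (9874 TPM). Between the E9.25 genotypes the log2 fold changes of *mt-Th*, *mt-Ts2* and *mt-Tl2* were 1.09, 1.22 and 1.24 with it and 0.21, 0.27 and 0.28 without it, and that of *mt-Nd5* was 0.26 and -0.03. Between the stages in WT those of the 3 tRNA genes went from 0.41, 0.56 and 0.53 to -0.48, -0.40 and -0.44, with no call either way. Without it, 0 members were called between the E9.25 genotypes, as with it, the count for the stages in WT went from 24 to 21, and that for the interaction from 5 to 4.

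Among the 10 protein genes other than *mt-Nd3*, *mt-Nd5* and *mt-Nd6*, the median r over 45 pairs was 0.85 (0.84), with a low of 0.54. The 10 tRNA genes called at E10.5 had a median r of 0.94 among themselves (0.60). The first value includes the group differences by which they were picked, and both can include reads shared by adjoining genes. Between these tRNA genes and the 10 protein genes the median r was -0.49 over all libraries and 0.41 within groups. In each group replicates differed more in tRNA genes than in protein genes by the median SD. The median SD of log2(TPM + 1) within a group was 0.12 to 0.32 for protein genes, 0.30 to 0.51 for tRNA genes and 0.13 to 0.25 for all expressed genes.

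Nuclear genes for the upkeep and expression of mtDNA gave no call between the genotypes. In lists of 69 genes for transcription, replication, transcript processing, RNA stability and the control of mitochondrial biogenesis, 0 of 68 tested passed at E9.25 and 0 of 69 at E10.5. Over all genes tested, 0.108% were called higher and 0.0271% lower at E9.25, and 1.84 and 2.93% at E10.5. Shares this low give few or no calls among so few genes, so these counts say little about them. *Trmt10c*, *Hsd17b10* and *1110008L16Rik* encode the enzyme that cuts mitochondrial tRNAs at the 5′ end and *Elac2* the one that cuts at the 3′ end. Between the E10.5 genotypes these differed by -0.07 ± 0.12, -0.10 ± 0.06, -0.06 ± 0.10 and 0.17 ± 0.08 log2 (SE, limma adjusted p = 0.804, 0.400, 0.782 and 0.292). They were named after the tRNA values had been seen.

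Between the stages, 7 of 69 such genes rose and 14 fell in WT, and 2 rose and 10 fell in *Gli3*-/-. These are 10.1 and 20.3% in WT, against 38.1 and 10.6% of all genes tested, and 2.9 and 14.5% in *Gli3*-/-, against 15.8 and 9.17%. In the list for processing of the transcript, 1 of 17 rose and 5 fell in WT, and 0 rose and 4 fell in *Gli3*-/-. *Elac2* fell in both (-0.37 ± 0.11 and -0.63 ± 0.15 log2, SE, limma adjusted p = 0.0254 and 0.0138), and *Pus1*, which makes pseudouridine in tRNAs, likewise (-0.48 ± 0.12 and -0.67 ± 0.15). *Trmt10c* fell in WT (-0.55 ± 0.13) and missed the threshold in *Gli3*-/- (-0.38 ± 0.14, limma adjusted p = 0.0691). In the list for transcription, 3 of 10 fell in WT, namely *Tfam*, the main packaging and start factor, *Tefm*, an elongation factor, and *Mrpl12*, a ribosomal protein also tied to transcription, at -0.30, -0.58 and -0.62 log2. *Ssbp1*, which coats single-stranded mtDNA, fell in WT (-0.70 ± 0.10) and *Rexo2*, a nuclease for short RNAs, in both (-0.59 and -0.49). *Myc*, a growth regulator, fell most (-1.66 ± 0.17 in WT and -2.06 ± 0.15 in *Gli3*-/-). *Ppargc1a*, a coactivator of mitochondrial biogenesis and 1 of those counted as risen in both, was listed at 0 in the E9.25 WT libraries, had a mean of 0.0784 TPM in E9.25 *Gli3*-/-, and reached means of 2.21 and 1.25 TPM at E10.5. It passed the filter on low TPM through the E10.5 libraries alone, so its call gives no support. Other genes of these lists with large changes were *Exog* (0.80), *Dguok* (0.59), *Trmu* (0.56) and *Top3a* (0.54), which rose in WT, and *Mterf2*, which rose in *Gli3*-/- (0.75), while *Pprc1* (-0.59) and *Tbrg4* (-0.57) fell in *Gli3*-/-.

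The nuclear subunits of the same 4 complexes (I, III, IV and ATP synthase) were compared with those of mtDNA. Of 71 tested, 0 passed between the E9.25 genotypes and 1 in each direction at E10.5, namely *Ndufs6* (-0.29 ± 0.07 log2, SE) and *Atp5g3* (0.30 ± 0.07). Between the stages 5 rose and 7 fell in WT, with the largest changes in *Ndufa10* (0.47) and *Uqcrq* (-0.71), and in *Gli3*-/- 0 rose and 1 fell (*Ndufv3*, -0.41). Over all genes tested, 0.108% were called higher and 0.0271% lower between the E9.25 genotypes, and 1.84 and 2.93% between the E10.5 genotypes. Between the stages it was 38.1 and 10.6% in WT, and 15.8 and 9.17% in *Gli3*-/-. The 71 nuclear subunits had median log2 fold changes of -0.20 and -0.07 for the genotypes at E9.25 and E10.5 and -0.05 and 0.04 for the stages in WT and *Gli3*-/-. The 13 mtDNA subunits had medians of -0.32, -0.04, 0.22 and 0.41 in the same 4 comparisons, and those of all genes tested were 0.23, -0.02, 0.34 and 0.06.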

How the data were processed

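RNA-seq gene tables of 14 libraries in 4 groups were used, and the other data types among the 67 samples of the series were not used here. Libraries were sequenced as single reads of 100 bases and aligned with HISAT2 to mm10, per the paper's methods and the submitters' processing notes; the program that made the gene tables, RNA selection, strand setting and treatment of reads with several matches are not given in the sources used here. For each gene the authors deposited coverage, FPKM and TPM values. TPM was the main measure. The deposited coverage gave read estimates, used for depth only: per library by dividing coverage by FPKM, and per gene as coverage times length over read length, and the deposited FPKM values served as an alternative. Depth was 38.1 to 56.8 M estimated reads per library (median 47.1 M). Lines that share a gene ID (322 over the tables) were summed.

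Since these units are not counts, limma 3.58.1 (R 4.3.3) was fitted in place of the count test of the study to log2(TPM + 1) with an empirical Bayes trend, over genes with TPM of at least 1 in at least 3 libraries of the fit. Benjamini-Hochberg adjustment ran over all genes tested, with a threshold of 0.05. On this scale, changes of low genes come out smaller than they are. The fit was also run on simulated data, with independent values and the same SD in every group for a gene. That run cannot show how the fit does for genes that share reads or whose spread differs between groups. Tables were handled in Python 3.11.15 with pandas 2.3.3. Groups came from the labels, which do not say that replicates are separate litters, so that p-values measure the spread between these pools. The members and gene lists were chosen with earlier results of these data known. All protein and rRNA genes are named, as are tRNA genes called in any comparison without overlap or highest or lowest by mean; nuclear genes for mtDNA expression are named when called between genotypes or among the 5 largest called changes in each direction between stages, and nuclear subunits by the largest called change in each direction. Genes of the chromosome 1 copy are named at TPM of at least 1. Alternatives changed the pseudocount, filter, scaling, unit, variance trend, threshold, replicate block and libraries. Adding the nuclear copies to their counterparts was chosen after seeing the data.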

Additional observations from a re-analysis of the deposited data

Results flagged for a closer look

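In groups of 4 libraries, 80 sets of values were examined for a library far from the rest of its group, of which chance gives about 1 in 20, and 4 were found. Groups of 3 were not examined. In E9.25 *Gli3*-/-, replicate 3 was the lowest for *mt-Nd4l* (687 TPM, the others 905 to 957), for *mt-Nd5* (1403 TPM, the others 1747 to 1796) and for *mt-Nd6* (1263 TPM, the others 1580.3 to 1647). In E10.5 WT, replicate 3 was the lowest for *mt-Td*, at 6.998 TPM, the others at 10.6 to 11.2.

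By the interaction test, the *Gli3*-/- effect of 5 tRNA genes differed between the stages. The effect at E10.5 minus that at E9.25 was -3.07 log2 for *mt-Tw*, -2.86 for *mt-Ta*, -2.32 for *mt-Tt*, -1.83 for *mt-Tp* and -1.54 for *mt-Td*. *mt-Tw*, *mt-Ta*, *mt-Tt* and *mt-Tp* passed without any 1 of the 14 libraries.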

How the results depend on the processing

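For members called, the values without 1 library each ran from 0 to 1 between the E9.25 genotypes (*mt-Tr* passed without E9.25 WT replicate 1), 5 to 14 between the E10.5 genotypes (10 with all), 19 to 22 between stages in WT (24 with all), 25 to 32 in *Gli3*-/- (29 with all) and 4 to 15 for the interaction (5 with all). The count between the E10.5 genotypes was 4 without a filter and 6 without a variance trend. With a log2 fold change of at least 1 required, 14 members passed between stages in WT and 19 in *Gli3*-/-, and at an adjusted p of 0.1 the interaction gave 8. Apart from the filter, the cause of these changes was not tested. The summed level of the protein genes between stages in WT was 0.20 log2 and -0.16 with size factors, where the median of all genes moved from 0.34 to 0.04. Over 184 pairs of a named member and a comparison, 3826 other values gave no sign change of a called value and 118 sign changes of values not called. Of the 3826, 150 were weaker, with a call lost, 35 were stronger, with a call gained, and 3641 stayed the same.

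The labels do not say whether same-numbered samples are pairs. By the title numbers, their deviations correlated at -0.18 to -0.15 between the E9.25 and -0.16 to 0.12 between the E10.5 genotypes. With 3 pairs in each comparison this cannot decide whether the samples are paired. With the title numbers as a replicate block, 2 members were called between the E10.5 genotypes and 0 for the interaction. With the deposited numbers, where E10.5 *Gli3*-/- runs from 2 to 4, 11 were called between the E10.5 genotypes, where same-numbered deviations correlated at 0.05 to 0.29 (2 of 3 pairs over 0.1), against a mean of -0.06 for other pairs. Depth limits the values of some tRNA genes, with as few as 0.330 estimated reads in a library for *mt-Tf*, but no fewer than 2592 for *mt-Ts1*. The estimate counts only bases inside the gene, so it is too low for genes shorter than a read.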
